A study of Mus musculus with 9 samples.

Results

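Genes of the mitochondrial respiratory chain and ATP synthase were followed in the retina of Balb/c mice after light damage, with and without A74. The members are all protein-coding rows of the count table whose symbol names a subunit of complexes I to V or cytochrome c, 103 of 55414 rows, of which 90 are nuclear genes and 13 lie on mitochondrial DNA (mt- genes). Of these, 84 nuclear and all 13 mt- genes passed the filter on low counts and were tested. Bulk RNA sequencing was done on 9 retina libraries in 3 groups of 3, namely control retina, retina from the light damage model, and retina from the light damage model with A74. All 3 groups are of the albino Balb/c strain and carry 1 batch date. The labels give no dose, route, vehicle or chemical identity of A74, no light intensity or duration, and no age or sex. The title of the series names P2RX7, a channel opened by extracellular ATP. Nothing states that each replicate came from its own animal. The p-values therefore reflect the spread of these libraries, which may be in part technical. Sex-linked transcripts, given below, differed within the control and within the light damage group. The libraries of each of these groups therefore did not all come from 1 animal.

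The respiratory chain passes electrons from NADH (complex I) and succinate (complex II) through ubiquinone, complex III and cytochrome c to oxygen at complex IV, and the proton gradient built on the way drives ATP synthase, complex V. Most subunits are encoded in the nucleus and imported, while a small hydrophobic set is encoded on mitochondrial DNA, so the enzymes other than complex II are built from both genomes. In the retina the densest mitochondria are packed in photoreceptor inner segments, beside the outer segments that capture light.

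Libraries held 14787972 to 18740434 counts. Expression levels are given as CPM (read counts scaled to a common library size with TMM factors), and a gene is called at an edgeR adjusted p under 0.05. The retinal label was checked with 22 rod photoreceptor markers, whose summed level was 77400 to 84600 CPM in control, 45900 to 66200 after light damage and 74800 to 79000 with A74. Genes of anterior eye tissue were high in control 1 and 2, light damage 1 and 2 and A74 1 (138 to 275 CPM summed over 8 genes) and low in the other 4 libraries (12.5 to 15.9 CPM). Xist was high in control 3 and all 3 A74 libraries and in no light damage library, and Y chromosome transcripts were found in control 1 and 2 and light damage 1 and 2 alone. Light damage 3 had neither. In bulk tissue, fewer cells of a type and less RNA per cell cannot be told apart.

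Light damage was accompanied by higher nuclear respiratory chain transcripts and by little movement of the mitochondrial ones. Nuclear and mt- genes were not matched for transcript length. With the trend on length removed, a step described below, their median log2 fold changes were 0.07 and -0.01. The nuclear members together held 0.667% ± 0.0276 of all counts in control, 0.804% ± 0.0159 after light damage and 0.726% ± 0.0112 with A74 (SD, n = 3 each), and the 3 groups did not overlap. Of the 84 nuclear members tested, 46 rose after light damage, 1 fell and 37 were not called, where 13.0% of all 17272 genes tested rose and 12.8% fell. The median log2 fold change was 0.24 over the nuclear members and 0.01 over all genes tested. In 57 nuclear members the 3 light damage libraries all lay above the 3 controls and in 1 all lay below, against 20.6% and 20.0% of all genes. The changes were small, from -0.25 to 1.00 on the log2 scale. The median was 0.20 among the 4 libraries high in anterior tissue genes and 0.30 between the single control and light damage library low in them.

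**Figure D1:**
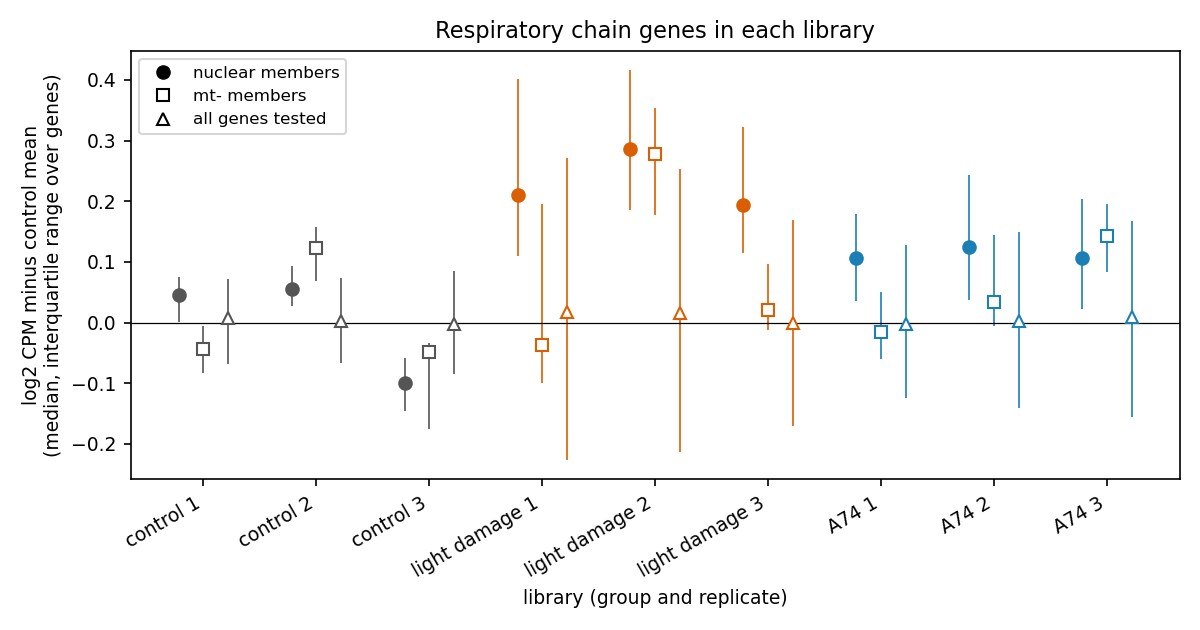
Log2 CPM of each library minus the control mean (y axis), given as the median and interquartile range over the 84 nuclear members (filled circles), the 13 mt- members (open squares) and all genes tested (open triangles), for each library (x axis). The nuclear medians run from -0.10 to 0.06 in control, 0.19 to 0.29 after light damage and 0.11 to 0.13 with A74, while the mt- medians of the 3 groups overlap.

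Transcript length ran alongside this result. The shorter the transcript, the higher its light damage fold change, with a Spearman correlation across genes of -0.61 over 83 nuclear members and -0.27 over 14243 genes with a known length (genes of 1 set of libraries, so not independent, and with no test). Nuclear members of up to 500 nt had a median log2 fold change of 0.45 (n = 15), against 0.27 over 70 other genes of that length. Above 500 and up to 700 nt both medians were 0.25 (22 members, 257 other genes), and above 700 and up to 1000 nt they were 0.27 and 0.17 (19 members, 679 other genes). Above 1000 and up to 1500 nt they were 0.15 and 0.13 (11 members, 1445 other genes), and over 1500 nt they were 0.06 and 0.00 (16 members, 11696 other genes). In these 5 classes, from short to long, 11 of 15, 16 of 22, 12 of 19, 4 of 11 and 2 of 16 members rose, where 38.6%, 35.8%, 28.1%, 23.2% and 12.4% of the other genes of each length did. With the trend on length removed from every library, a step added after the data were seen, 20 nuclear members instead of 46 were called higher, all 20 of them among the 46, and the nuclear median was 0.07. In that fit 12.2% of all genes were called higher. What sets the length trend was not tested.

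**Figure D2:**
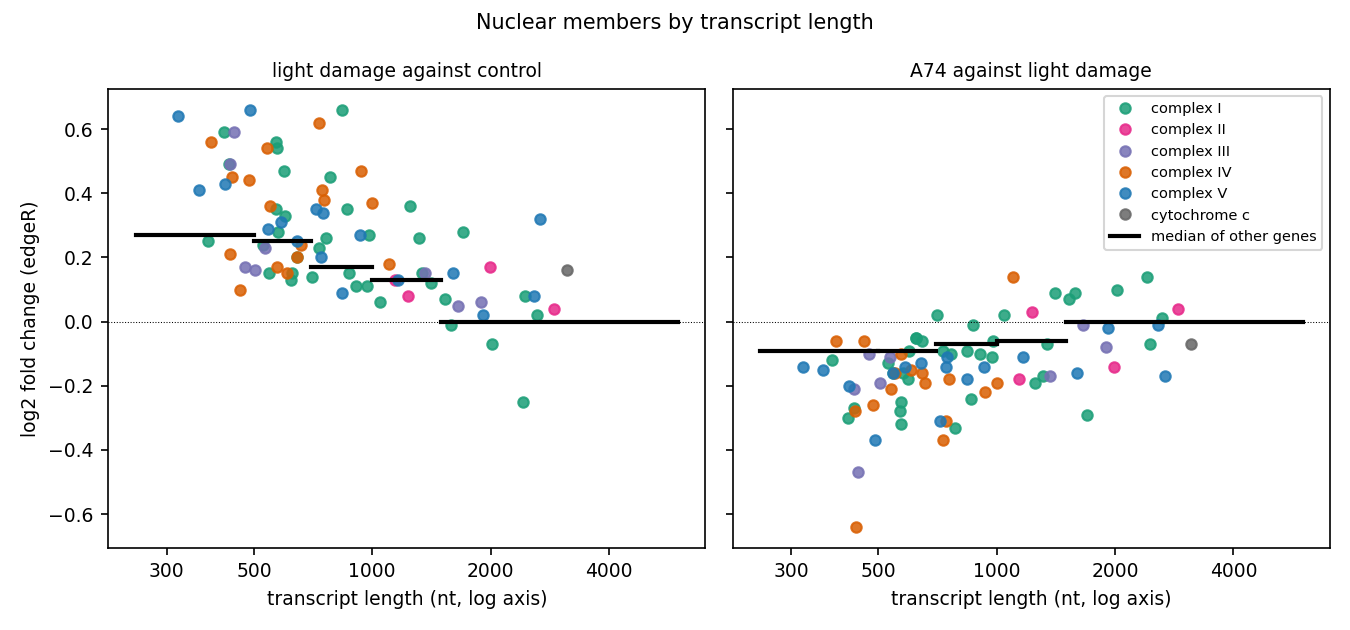
Log2 fold change (y axis) of 83 nuclear members against annotated transcript length in nucleotides (x axis, log scale), coloured by complex, for light damage against control (left) and A74 against light damage (right). Black bars are the medians of all other genes in 5 length classes, which fall from 0.27 to 0.00 with length on the left and run from -0.09 to 0.00 on the right.

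Complex I, the NADH dehydrogenase and largest enzyme of the chain, had 37 nuclear members tested. Of these, 20 rose after light damage and 1 fell, with a median log2 fold change of 0.24. With the length trend removed, 8 of the 20 stayed called and the median was 0.06. Ndufb1, an accessory subunit of the membrane arm, had 5.86, 6.39 and 4.79 CPM in control 1 to 3, 11.6, 12.1 and 10.4 after light damage, and 8.99, 8.43 and 8.90 with A74. The 3 groups did not overlap, and the log2 fold change after light damage was 1.00 (SE 0.14, adjusted p = 0.00012), the largest among the nuclear members. No transcript length was matched for Ndufb1, so its value was not adjusted for length. Ndufs6, a zinc-binding accessory subunit of the peripheral arm, had 18.1, 18.3 and 17.3 CPM in control, 27.6, 26.3 and 25.6 after light damage, and 21.3, 23.0 and 21.1 with A74. Each A74 library lay between the control and the light damage range, and the rise after light damage was 0.56 (SE 0.09, adjusted p = 0.000251). Ndufa2, another peripheral arm accessory subunit, rose by 0.54 (SE 0.09, adjusted p = 0.000484). With the length trend removed the rises of Ndufs6 and Ndufa2 were 0.34 and 0.32, and both stayed called.

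Ndufb2, an accessory subunit of the membrane arm, was the 1 nuclear member that fell. It had 46.6, 45.3 and 48.9 CPM in control, 38.0, 37.5 and 42.6 after light damage, and 41.8, 43.7 and 45.0 with A74. All light damage libraries lay below all controls (log2 fold change -0.25, SE 0.07, adjusted p = 0.0139). The call was lost without control 3, light damage 1 or light damage 2 (adjusted p 0.0588, 0.068 and 0.0925). Ndufb2 is annotated at 2413 nt, which may not be its length in retina, so its value with the length trend removed (-0.26) is uncertain.

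The 7 nuclear core subunits of complex I, which carry flavin and the iron-sulphur clusters or bind ubiquinone, were set apart from the accessory subunits after their values were seen. Of the 7, Ndufs8 (0.27, adjusted p = 0.0167) and Ndufv2 (0.26, adjusted p = 0.00862) rose. The median of the 7 was 0.07, against 0.26 over 30 accessory subunits, of which 18 rose. These sets were not matched for transcript length. Core transcripts are annotated at 870.5 (Ndufs7) to 2625.5 nt (Ndufs1), and accessory ones at 382 (Ndufa6) to 2447.5 nt (Ndufab1). Many accessory transcripts are shorter than any of the core. The part of length in this difference was not tested. The call of Ndufs8 was lost without control 2, control 3 or light damage 2 (adjusted p 0.0753, 0.0675 and 0.098), and neither was called with the length trend removed (0.13 for Ndufs8 and 0.16 for Ndufv2). Ndufs1, the largest of the core, had 95.7 to 106 CPM in control, 98.0 to 105 after light damage and 100 to 104 with A74. Ndufv1, which holds the flavin that accepts electrons from NADH, likewise overlapped between control and light damage, with a log2 fold change of 0.07. Ndufa12, an accessory subunit, varied within groups (13.5, 32.8 and 23.7 CPM in control) and was not called (0.66, SE 0.33, adjusted p = 0.204). Of its transcript sequence, 26.2% is shared with another annotated transcript, so its count is uncertain.

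Complex II, succinate dehydrogenase, is the 1 complex built from nuclear genes alone, and edgeR called none of its 4 members after light damage, with 1 at an unadjusted p under 0.05 and 0 called by DESeq2. Sdha, the flavoprotein that oxidises succinate, had 303, 282 and 279 CPM in control, 283, 289 and 313 after light damage, and 306, 299 and 302 with A74. The groups overlapped (log2 fold change 0.04, SE 0.06, adjusted p = 0.712). The iron-sulphur subunit Sdhb and the membrane anchor Sdhd had values of 0.13 and 0.08. Sdhc, the other membrane anchor, had light damage libraries (102 to 107 CPM) above all controls (85.8 to 97.8 CPM), with a log2 fold change of 0.17 (adjusted p = 0.0518). With the replicate number as a block the adjusted p of Sdhc was 0.0355.

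Complex III, the cytochrome bc1 complex, had 3 of 8 nuclear members called higher and a median of 0.17. With the length trend removed, 2 of the 3 stayed called and the median was 0.01. Uqcr11, a small subunit, had 23.2, 21.9 and 18.3 CPM in control, 34.1, 33.4 and 27.9 after light damage, and 23.8, 22.2 and 23.0 with A74. Light damage lay above both other groups, and A74 overlapped control (light damage against control 0.59, SE 0.10, adjusted p = 0.000617). Uqcr10, another small subunit, rose by 0.49 (SE 0.09, adjusted p = 0.000704) and Uqcrb, a ubiquinone-binding protein, by 0.23 (adjusted p = 0.0247). The call of Uqcrb was lost without control 3 or light damage 2 (adjusted p 0.12 and 0.108), and its value was -0.0038 with the length trend removed. The core proteins Uqcrc1 and Uqcrc2 had log2 fold changes of 0.05 and 0.06, and the Rieske iron-sulphur protein Uqcrfs1 had 0.15 (adjusted p = 0.0678). Cycs, the cytochrome c that carries electrons from complex III to IV, had 68.8 to 84.3 CPM in control and 84.4 to 88.9 after light damage (0.16, adjusted p = 0.089).

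Complex IV, cytochrome c oxidase, had the highest median of the complexes, 0.37 over 17 nuclear members, of which 11 rose. With the length trend removed, the median was 0.19 and 6 of the 11 stayed called. Cox7c, a small membrane subunit, had 44.7, 47.0 and 38.7 CPM in control, 62.4, 66.7 and 60.1 after light damage, and 54.1, 54.3 and 55.3 with A74. The 3 groups did not overlap, and the rise after light damage was 0.54 (SE 0.07, adjusted p = 0.000117). Cox5b, a matrix-side subunit that binds zinc, had 50.2 to 57.8 CPM in control and 68.2 to 76.5 after light damage (0.41, adjusted p = 0.000431). The row Cox5b-ps also rose (0.56, adjusted p = 0.0384), but 61.9% of its sequence is shared with other transcripts, so its count cannot be separated from theirs. Its call was lost without any 1 of the 3 controls or light damage 2 (adjusted p 0.105, 0.0645, 0.0948 and 0.182).

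Of the transcript sequence of Uqcrb, Cycs, Cox7c, Cox5b and the complex V subunit Atp5g2, 43.2%, 28.2%, 23.0%, 21.8% and 38.3% is shared with other annotated transcripts, so their counts are uncertain too.

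Several complex IV subunits have alternative isoforms. Cox4i1, the widespread form of subunit 4, had 186, 188 and 162 CPM in control, 223, 244 and 232 after light damage, and 203, 211 and 201 with A74, without overlap between groups (0.38, SE 0.06, adjusted p = 0.000448). Cox4i2, the form linked to low oxygen, rose by 0.62 (SE 0.13, adjusted p = 0.00277) from 9.64 to 11.9 CPM in control to 13.2 to 17.9 after light damage. Both therefore rose, as did Cox6b1 (0.44, adjusted p = 0.000431), Cox8a (0.36, adjusted p = 0.00348), Cox7a2 (0.24, adjusted p = 0.0231) and Cox6a1 (0.17, adjusted p = 0.0401). Of these, Cox6a1, Cox7a2 and Cox8a were no longer called with the length trend removed (-0.05, 0.04 and 0.13). The call of Cox7a2 was also lost without control 3 or light damage 2, and that of Cox6a1 without control 1, control 3, light damage 1, light damage 2 or A74 2. The scarce forms Cox6b2 (3.98 to 5.01 CPM in control) and Cox7a1, the heart and muscle form (0.539 to 0.918 CPM), were not called (0.21 and 0.45, adjusted p = 0.407 and 0.461). Ndufa4, first described in complex I and now placed in complex IV, had 0.10 (adjusted p = 0.333), and its relative Ndufa4l2, at 0.495 to 1.15 CPM in control, had 0.47 (adjusted p = 0.379).

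The other 6 members were too low to test. Cox8c, a testis form, had 0 counts in all 9 libraries, which allows up to 3 counts in a library, or 0.16 to 0.203 CPM, for counting error only. A second row named Atp5o was also at 0. The muscle forms Cox6a2 and Cox8b and the rows Cox7b2 and Ndufb11b had at most 0.208, 0.722, 0.12 and 0.239 CPM. Cox8b lay at 0.262 to 0.722 CPM in the light damage libraries and at 0 to 0.181 CPM in control.

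Complex V, the ATP synthase, had 12 of 17 nuclear members called higher and a median of 0.29. With the length trend removed, 4 of the 12 stayed called and the median was 0.09. The membrane sector Fo and the stalk, a split made after the values were seen, had 10 of 12 members called with a median of 0.31. The catalytic F1 head had 2 of 5 with a median of 0.13. The split was not matched for transcript length. In F1, the called Atp5d and Atp5e are annotated at 931 and 421 nt, and the uncalled Atp5b and Atp5a1 at 1916 and 2572.5 nt. Atp5mpl, a small membrane subunit, had 50.5, 52.7 and 43.5 CPM in control, 77.1, 79.0 and 75.8 after light damage, and 55.2, 62.3 and 62.0 with A74. The 3 groups did not overlap, and its adjusted p of 2.53e-05 (0.66, SE 0.07) was the smallest of all members. The rotor ring is made of subunit c, which is encoded by Atp5g1, Atp5g2 and Atp5g3 with the same mature protein. All 3 rose after light damage, by 0.32, 0.31 and 0.35 (adjusted p = 0.0172, 0.00476 and 0.000378). Atp5g1 lost its call without control 3 or light damage 1 (adjusted p 0.082 and 0.0585), and Atp5g2 lost it with the length trend removed (0.09, adjusted p = 0.36). Atp5g1 is annotated at 2675.5 nt, which may not be its length in retina, so its length adjustment is uncertain. Atp5j2, subunit f of the membrane sector, rose by 0.34 (adjusted p = 0.000716). The catalytic beta subunit Atp5b had 1010, 1030 and 924 CPM in control, 925, 1030 and 1050 after light damage, and 981, 1010 and 974 with A74, so that the groups overlapped (0.02, adjusted p = 0.895), and the alpha subunit Atp5a1 had 0.08 (adjusted p = 0.45).

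**Figure D3:**
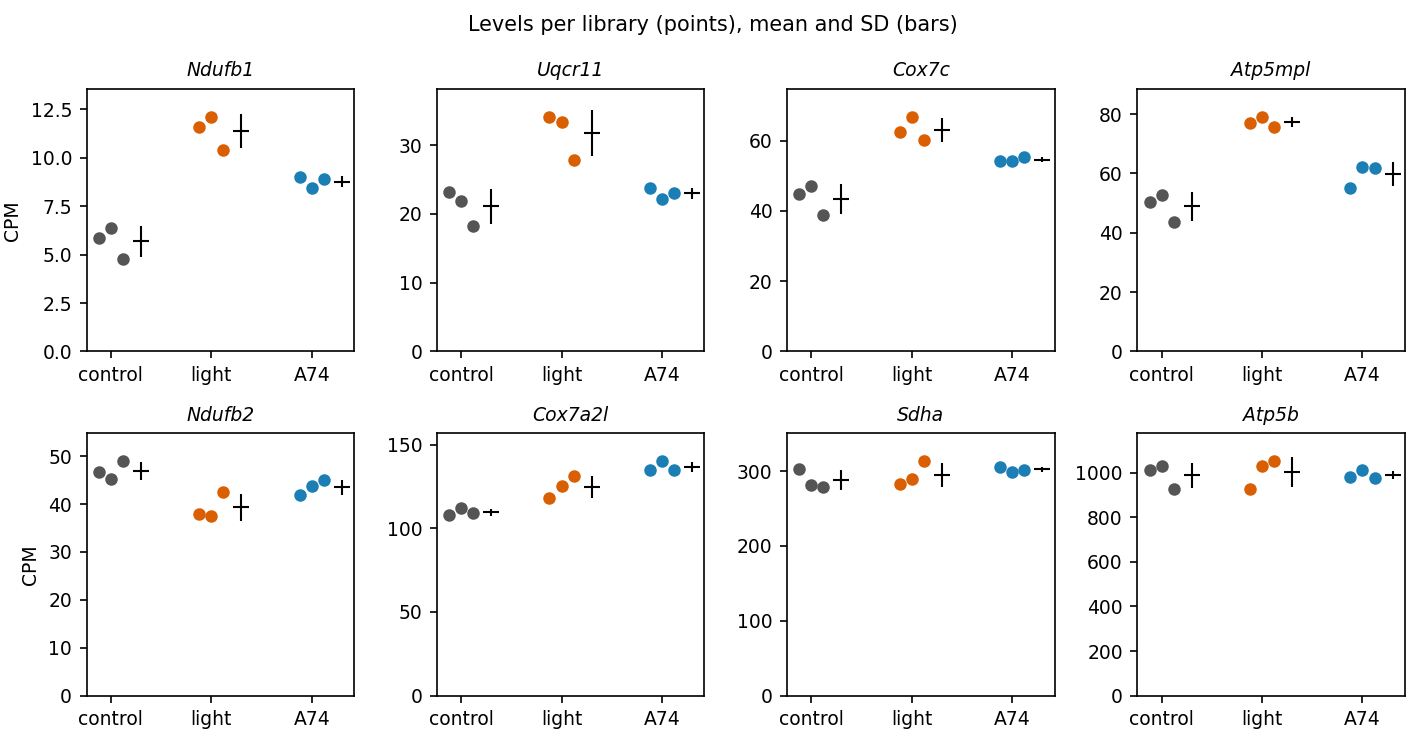
CPM (y axis, from 0) of 8 nuclear members in control, light damage and A74 libraries (x axis, coloured points, 3 per group), with black bars for mean and SD. Ndufb1, Uqcr11, Cox7c and Atp5mpl lie highest after light damage, Ndufb2 has its lowest mean there, Cox7a2l is highest with A74, and Sdha and Atp5b overlap between all 3 groups.

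Promoters were read because many nuclear members moved together. RefSeq promoter windows (GRCm38.p6, 250 bases before to 50 after the start) were matched for 71 of 89 nuclear member symbols. Of 76 such windows, 18 (23.7%) held the nuclear respiratory factor 1 motif (GCGCA, any base, then GCGC) on either strand, against 4.6% of 32851 promoters of the same length. The ETS motif of GABPA, CCGGAAG, was in 17 (22.4% against 8.86%) and the YY1 motif AAGATGGCG in 7 (9.21% against 1.4%), with no overlapping hits of different motifs. At least 1 of the 3 was present for 22 of 40 genes that rose after light damage and for 13 of 29 tested genes that did not rise. The windows below belong to genes that rose (Ndufs6, Uqcr11 and Atp5g3) and to 1 that was not called (Sdha), with motif matches in capitals. Sdha has 3 matches to the nuclear respiratory factor 1 motif and Ndufs6 and Atp5g3 have 1 each, Uqcr11 has an ETS match, and Ndufs6 has a YY1 match just past its start. A match is a run of letters and not a measured binding site.
Ndufs6 promoter, chr13:73328433-73328732, minus strand: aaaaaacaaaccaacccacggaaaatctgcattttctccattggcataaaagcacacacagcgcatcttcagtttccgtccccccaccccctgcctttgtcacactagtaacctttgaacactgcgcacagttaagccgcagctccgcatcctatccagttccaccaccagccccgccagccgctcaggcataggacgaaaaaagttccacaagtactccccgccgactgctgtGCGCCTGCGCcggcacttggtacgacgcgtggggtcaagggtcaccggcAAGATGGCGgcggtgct
Uqcr11 promoter, chr10:80406772-80407071, minus strand: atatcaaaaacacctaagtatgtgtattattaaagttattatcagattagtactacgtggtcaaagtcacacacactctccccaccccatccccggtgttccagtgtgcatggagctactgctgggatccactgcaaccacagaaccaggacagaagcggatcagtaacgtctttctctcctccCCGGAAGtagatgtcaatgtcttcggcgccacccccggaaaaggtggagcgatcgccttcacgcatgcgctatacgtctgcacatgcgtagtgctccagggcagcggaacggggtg
Atp5g3 promoter, chr2:73911277-73911576, minus strand: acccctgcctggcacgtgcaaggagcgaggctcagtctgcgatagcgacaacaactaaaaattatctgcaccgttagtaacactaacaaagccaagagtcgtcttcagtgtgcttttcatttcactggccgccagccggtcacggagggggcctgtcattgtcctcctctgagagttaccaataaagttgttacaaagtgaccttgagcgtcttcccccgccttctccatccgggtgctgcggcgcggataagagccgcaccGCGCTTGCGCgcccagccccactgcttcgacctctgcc
Sdha promoter, chr13:74350191-74350490, minus strand: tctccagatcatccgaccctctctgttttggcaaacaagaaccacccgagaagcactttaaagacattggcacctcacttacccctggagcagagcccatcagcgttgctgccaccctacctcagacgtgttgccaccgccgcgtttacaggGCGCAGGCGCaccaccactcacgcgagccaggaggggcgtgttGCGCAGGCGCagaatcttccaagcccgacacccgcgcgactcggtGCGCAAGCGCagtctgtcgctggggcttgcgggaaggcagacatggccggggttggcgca

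The 13 mt- genes held 3.04% ± 0.161 of all counts in control, 3.36% ± 0.228 after light damage and 3.25% ± 0.232 with A74 (SD, n = 3 each), and their ranges touched or overlapped (2.92% to 3.22%, 3.22% to 3.62% and 3.06% to 3.51%). In control 1, mt-Co2, mt-Co3 and mt-Atp6 had 1239, 1391 and 2415 counts, against 176546 for mt-Co1. Their nuclear copies Gm28661, Gm28437 and Gm10925 had 954, 1246 and 1964. The summed share therefore rests mainly on the other mt- rows. Why these 3 rows are low was not tested. After light damage 1 of the 13 rose, 1 fell and 11 were not called, with a median log2 fold change of 0.12. mt-Co1, the catalytic subunit of complex IV, had -0.01 (SE 0.10, adjusted p = 0.971), and mt-Cytb, the cytochrome b of complex III, had 0.03. The complex I subunits mt-Nd1, mt-Nd2, mt-Nd4, mt-Nd5 and mt-Nd6 had 0.15, 0.12, 0.04, 0.04 and 0.13. In each of these genes the control and light damage libraries overlapped. Except for mt-Nd6 (519 nt), they are annotated at 957 to 1824 nt. Nuclear members above 1000 and up to 1500 nt had a median of 0.15, and those over 1500 nt had 0.06.

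Both called mt- genes have near-identical nuclear copies, so their counts are uncertain. mt-Nd4l, a small complex I subunit, had 20.1, 12.4 and 19.4 CPM in control, 10.8, 10.8 and 9.64 after light damage, and 11.6, 10.4 and 13.9 with A74, a fall of -0.72 after light damage (SE 0.16, adjusted p = 0.00515). mt-Nd3, another, rose from 8.62, 9.41 and 8.90 CPM to 10.3, 13.9 and 11.9 (0.42, SE 0.14, adjusted p = 0.0304), with 10.5, 12.9 and 10.5 CPM under A74. Each group of light damage libraries lay wholly on 1 side of control. Of all 50-base stretches of mt-Nd4l and mt-Nd3, 98.8% and 98% also occur in nuclear transcripts. The call of mt-Nd3 was lost without any 1 of control 1, control 2, control 3 or light damage 2 (adjusted p 0.1, 0.0561, 0.0745 and 0.161) and with the length trend removed (0.12). Among the 8 mt- genes that share under 90% of their sequence, edgeR and DESeq2 each called 0, with 0 at an unadjusted p under 0.05, and the median was 0.08. mt-Co2, mt-Co3 and mt-Atp6, shared at 100%, 99.9% and 99.5%, had 0.43, 0.09 and 0.22 (adjusted p = 0.131, 0.666 and 0.772), and mt-Atp6 stood out in control 1 (171 CPM) and light damage 1 (227 CPM) against 76.1 to 120 CPM in the other 7 libraries. mt-Atp8, at 0.337 to 1.77 CPM in all libraries, had 0.93 (SE 0.47, adjusted p = 0.16).

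**Figure D4:**
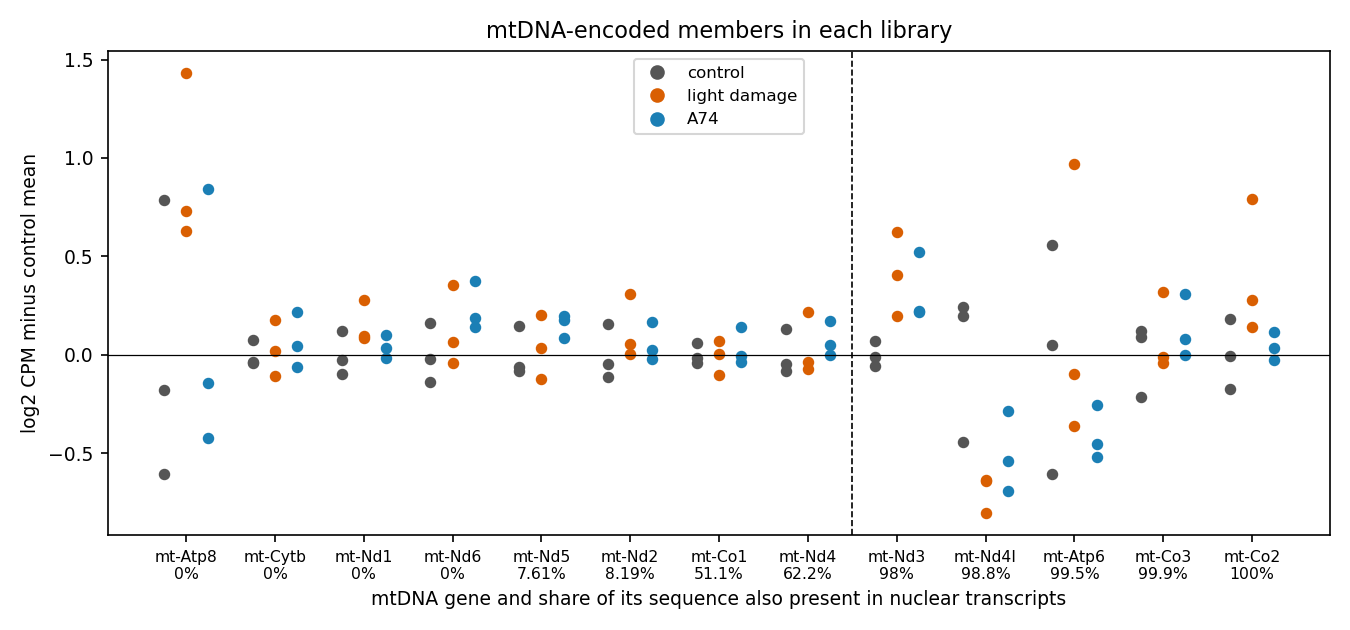
Log2 CPM minus the control mean (y axis) of each mt- gene in every library, 3 points per group, with genes ordered by the share of their 50-base stretches also present in nuclear transcripts (x axis, percent under each name). Right of the dashed line, where over 90% is shared, lie the 2 called genes, mt-Nd3 and mt-Nd4l. Left of it none was called.

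With A74, 11 of the 84 nuclear members fell against light damage, 0 rose and 73 were not called, where 9.19% of all genes fell and 9.07% rose. At an unadjusted p under 0.05, edgeR had 34 lower and 1 higher, and DESeq2 called 9 lower and 0 higher. The median log2 fold change was -0.14 over the nuclear members and 0.00 over all genes. All A74 libraries lay below all light damage libraries in 40 nuclear members and above in 3, against 17.7% and 17.5% of all genes. In the 5 length classes, from short to long, 3 of 15, 3 of 22, 3 of 19, 1 of 11 and 1 of 16 members fell. Of the other genes of each length 10%, 16%, 12.1%, 14.1% and 10.2% fell. The 11 were 5 of complex I (Ndufa2, Ndufs6, Ndufs4, Ndufc1 and Ndufb6), 2 of complex III (Uqcr11 and Uqcrfs1), 2 of complex IV (Cox5b and Cox6b1) and 2 of complex V (Atp5g3 and Atp5mpl). In complex II, edgeR and DESeq2 each called 0, with 2 members lower at an unadjusted p under 0.05. Among the 13 mt- genes both tools called 0 as well, with 0 at an unadjusted p under 0.05 and a median of 0.03.

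Uqcr11 fell furthest of the 11, by 0.47 on the log2 scale (SE 0.10, adjusted p = 0.00486), to the 22.2 to 23.8 CPM given above. Atp5g3 had 127, 126 and 118 CPM in control, 164, 159 and 151 after light damage, and 127, 123 and 132 with A74. The A74 libraries lay below all light damage libraries and overlapped control (-0.31, SE 0.06, adjusted p = 0.00167). Atp5mpl fell by 0.37 (adjusted p = 0.00316) and Cox5b, at 57.8 to 58.9 CPM with A74, fell by 0.31 (adjusted p = 0.00538). Ndufa2 and Ndufs6 fell by 0.32 and 0.28 (adjusted p = 0.0203 and 0.0299). Ndufs4, an accessory subunit of the peripheral arm that is needed for full complex I assembly, had 39.7 to 45.1 CPM in control, 45.7 to 54.5 after light damage and 40.5 to 42.5 with A74. It fell by 0.29 with A74 (adjusted p = 0.0161), after a rise of 0.28 with light damage (adjusted p = 0.0124). The fall was not called without light damage 1, light damage 2 or A74 2 (adjusted p 0.0783, 0.0604 and 0.0663), nor the rise without control 2 or light damage 1 (adjusted p 0.0605 and 0.0524). Ndufb1, Cox7c and Cox4i2, high after light damage, had -0.38, -0.21 and -0.37 with A74 and missed the threshold (adjusted p = 0.0611, 0.0574 and 0.0597).

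The number of members that fell with A74 depended on single libraries and on sex-linked transcripts. It was 4 without light damage 2, 21 (with 2 that rose) without light damage 3, and 6, 7 and 6 without A74 1, 2 and 3. The share of all genes that fell also moved, to 5.37% without light damage 2, 12.4% without light damage 3, and 7.55%, 5.51% and 5.26% without A74 1, 2 and 3. All A74 libraries were high in Xist and no light damage library was, so the sex-linked difference and A74 cannot be told apart here, and with Y transcripts as a term 1 nuclear member fell, with a median of -0.06. In that fit 2.36% of all genes fell and 1.95% rose. Uqcr11, Cox5b, Atp5g3 and Atp5mpl stayed called without any 1 of the 9 libraries, and the other 7 each lost their call without at least 1. Atp5g3 alone stayed called with Y transcripts as a term. Uqcrfs1 (-0.17, adjusted p = 0.0468) lost its call in each of these 6 fits. With the length trend removed, 6 nuclear members fell and 1, Cox7a2l, rose, with a median of -0.06. In that fit 9.7% of all genes fell and 9.2% rose.

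Cox7a2l, which helps join complexes III and IV into supercomplexes, had 108, 112 and 109 CPM in control, 118, 125 and 131 after light damage, and 135, 140 and 135 with A74. The 3 groups did not overlap and the A74 libraries were highest (light damage against control 0.18, adjusted p = 0.0214, and A74 against light damage 0.14, adjusted p = 0.0924). Against control, A74 was higher by 0.32 (SE 0.05, adjusted p = 0.0116). The rise after light damage was not called without control 1, control 3, light damage 2 or light damage 3 (adjusted p 0.0779, 0.0608, 0.0592 and 0.0554), and the difference from control was not called without control 1, control 2 or A74 2 (adjusted p 0.0925, 0.0571 and 0.109). With the length trend removed, Cox7a2l had 0.06 after light damage (adjusted p = 0.424) and 0.18 in A74 against light damage (adjusted p = 0.0259).

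Between A74 and control 3 members were called. Cox7a2l, Cox7c (0.33, adjusted p = 0.0492) and Ndufb1 (0.62, adjusted p = 0.0483) were higher with A74, 3 of 84 nuclear members, where 0.591% of all genes were higher and 0.301% lower. No nuclear member was lower by edgeR, DESeq2 or an unadjusted p under 0.05. For mt- genes edgeR and DESeq2 each called 0, with 2 higher and 1 lower at an unadjusted p under 0.05. The median log2 fold change was 0.11 over the nuclear members, 0.07 over the mt- genes and 0.00 over all genes. In 27 nuclear members all A74 libraries lay above all controls and in 1 all lay below, against 11.8% and 11.0% of all genes. These shares are not matched for transcript length. In the 5 length classes, from short to long, nuclear medians were 0.22, 0.12, 0.14, 0.08 and 0.03. Other genes of each length had 0.18, 0.15, 0.10, 0.07 and -0.01. With the length trend removed, Cox7a2l stayed called (adjusted p = 0.0468) and Cox7c did not (adjusted p = 0.151). Ndufb1, with no matched length, was not called in that fit (adjusted p = 0.0532). The 3 calls above were thin. Without control 1, control 2 or A74 2, 0 nuclear members were higher. The number was 1 without control 3, light damage 2 or A74 3, and 5 without light damage 3. Because this contrast and the 2 above share libraries, the values are given side by side and not set against each other.

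**Figure D5:**
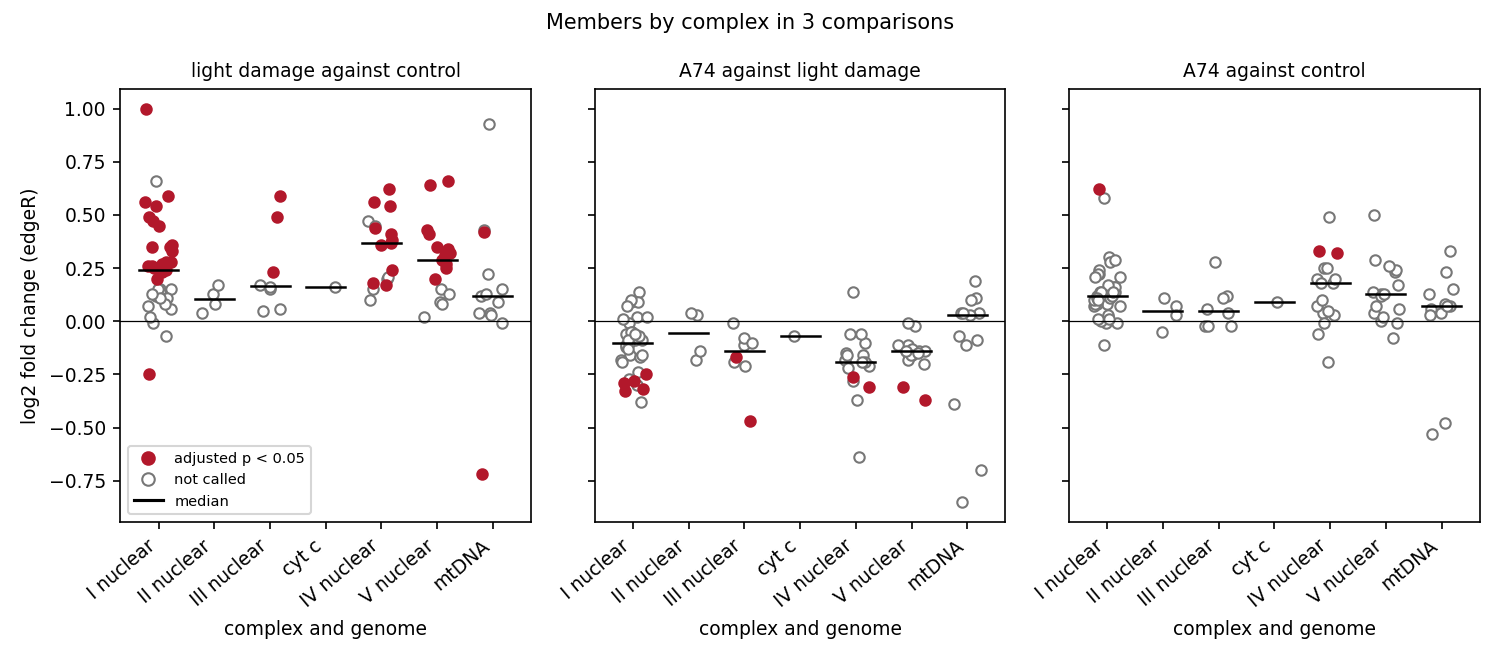
Log2 fold changes from edgeR (y axis) of the nuclear members by complex and of the mt- genes (x axis), in the 3 comparisons (panels). Red points were called at an adjusted p under 0.05, open points were not, and bars are medians. In the light damage panel the medians are 0.24, 0.10, 0.17, 0.37 and 0.29 for nuclear complexes I to V. No value shown is adjusted for transcript length.

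Other mitochondrial genes were read from lists, beside which 13.0% of all genes rose and 12.8% fell after light damage, and 9.07% rose and 9.19% fell with A74 against light damage. These shares are not matched for transcript length, and shorter genes rose more often after light damage. Among 23 tested genes of mitochondrial biogenesis and mitochondrial DNA expression, 9 fell after light damage and 0 rose (0 also at an unadjusted p under 0.05 and by DESeq2), with a median of -0.16. Nrf1, the nuclear respiratory factor 1 whose motif was searched above, fell from 52.2 ± 1.63 CPM to 37.4 ± 2.18 (SD, n = 3, log2 fold change -0.48, adjusted p = 0.000165) and was 49.1 ± 2.44 with A74, a rise of 0.39 against light damage (adjusted p = 0.0014). Top1mt, the mitochondrial topoisomerase, fell by 0.44 (adjusted p = 0.0037) and Esrrb, an orphan receptor of energy metabolism, by 0.69 (adjusted p = 0.0078). With A74, 5 of the 23 rose against light damage and 0 fell, among them Polrmt, the mitochondrial RNA polymerase (0.38, adjusted p = 0.00469), and Top1mt (0.41, adjusted p = 0.00818).

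The mitochondrial ribosome had 17 of 77 genes called higher after light damage, 0 lower, and a median of 0.16, led by Mrps21 (0.44, adjusted p = 0.00104). Against light damage, A74 had 3 of the 77 higher, led by Mrpl49 (0.40, adjusted p = 0.000928), and 1 lower, Mrps28 (-0.51, adjusted p = 0.026). Of 47 assembly factors of the chain, 5 rose and 2 fell after light damage, with a median of 0.02, so rises were no more frequent than the 13.0% of all genes. The complex I factor Ndufaf3, the complex III factor Uqcc2 (0.57, adjusted p = 0.00398) and the complex IV factor Pet100 (0.70, adjusted p = 0.0019) were among those that rose, and Coa7, a complex IV factor, fell by 0.42 (adjusted p = 0.00502). Of 19 genes of the tricarboxylic acid cycle, 4 rose (Idh2, Idh3g, Mdh2 and Suclg1) and 0 fell, with a median of 0.06. Of 21 import genes 5 rose, led by Tomm7 (0.63, adjusted p = 0.00029) of the outer membrane translocase, and Timm44 fell. Of 11 carriers and related genes, 4 rose and 2 fell. The adenine nucleotide carrier Slc25a4 rose by 0.29 (adjusted p = 0.0037), the uncoupling protein Ucp2 by 1.27 (adjusted p = 0.0391), and the mitochondrial creatine kinase Ckmt1 fell by 0.35 (adjusted p = 0.00644).

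Cell type markers moved in the same comparisons. After light damage 16 of 22 rod markers fell and none rose, 14 of 16 microglia and macrophage markers rose (summed level 87.7 to 96.2 CPM in control, 246 to 417 after light damage, 94.4 to 128 with A74), and 8 of 10 Müller glia markers rose (5440 to 6190, 6860 to 7520 and 5460 to 6020 CPM). With A74, 18 rod markers rose, 15 microglia markers fell, and 8 Müller glia markers fell and 1 rose against light damage. Of 8 endothelial markers, 2 rose after light damage and 2 fell with A74 (332 to 362 CPM in control, 482 to 607 after light damage, 340 to 375 with A74). No marker of the rod, microglia and Müller glia lists was at 0 in any group. Their part in the respiratory chain values was not tested. Striated muscle genes, a possible source of muscle isoforms, summed to 8.73 to 14.0 CPM over all libraries, with 2 of 12 at 0 everywhere.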

How the data were processed

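RNA of 9 mouse retina libraries was sequenced, and the titles gave each library its group and replicate number. The authors deposited 1 table of counts per gene (whole numbers, not normalised, as judged from the values). Per the submitters' processing notes, the tools were RSEM 1.3.1, Bowtie2 and DESeq2 1.4.5 with build GRCm39, listed without their roles. Whether strand was used, or estimates were rounded, is not given in the sources used here. Such estimates split reads between near-identical genes, so the share of 50-base stretches found in other transcripts is given for the nuclear members named with CPM or a fold change where it was over 20%, and plotted for the mt- genes. The reference at hand was GRCm38, used for transcript lengths (median over GENCODE M21 basic protein-coding transcripts, which need not be the form present in retina), shared sequence and RefSeq promoters, and not for coordinates of the counts.

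Genes were kept by filterByExpr with a minimum count of 10, given TMM factors, and compared by the robust quasi-likelihood test of edgeR 4.0.16 (R 4.3.3), in 1 fit of 9 libraries, with Benjamini-Hochberg adjustment over 17272 genes. SE is the fold change over the square root of F. Per-library medians used log2 CPM with a prior count of 2. The fit was tested on simulated data. DESeq2 1.42.0 was an alternative. Depth of 14787972 to 18740434 counts limits members under about 1 CPM.

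The members, lists, covariates and alternatives were chosen with earlier results of these data known. The genes named are all mt- genes, complex II, Cycs, Ndufa4, Cox7a2l, isoform members, and up to 3 called members of each complex and 3 of each pathway list per direction with the smallest adjusted p. The core subunits, Ndufs4, Ndufa12, Cox5b-ps, Uqcrc1, Uqcrc2, Uqcrfs1, Atp5a1, Atp5b, Suclg1, Ndufaf3 and the mt-Rnr rows were named after their values were seen, as were the other members listed as called with A74. The rule also asked for Atp5if1, listed as Atpif1 and outside the member pattern.

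Libraries of 1 replicate number deviated together in light damage and control (correlations 0.12, 0.25 and 0.31). The main fit and its p-values used no pairing, and the replicate block was an alternative only. In both groups, libraries 1 and 2 were high in anterior tissue genes and had Y transcripts, and library 3 was low and had none. Pairs by number and this split cannot be told apart here. Any pairing is weak, since light damage 1 and control 2 had a correlation of 0.13, above the lowest of the 3. The library names of light damage and A74 also carry other numbers than the titles. In A74 against light damage the correlations by number were 0.13, -0.07 and 0.13, and in A74 against control 0.07, -0.09 and 0.14. No 2 libraries were duplicates, with a chi-square per gene of 2.49 to 15.4 between replicates. Alternatives were DESeq2's size factors, no filter, scaling without mt- genes, the replicate block, terms for anterior tissue and for Y transcripts, 2 groups alone, DESeq2, leaving out libraries, and removal of the length trend (added after the data were seen).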

Additional observations from a re-analysis of the deposited data

How the results depend on the processing

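In light damage against control, the nuclear members called higher numbered 46, and 34 to 47 when each library was left out in turn. Those called lower were 0 to 1 and the mt- members called 1 to 2, with medians of 0.20 to 0.26 (nuclear) and 0.02 to 0.20 (mt-). In A74 against light damage, leaving out a library gave 4 to 21 nuclear members lower, 0 to 2 higher and 4 to 23 members called in all. The mt- median changed sign there, from -0.05 to 0.08. In A74 against control it gave 0 to 5 nuclear members higher, 0 to 1 mt- members, and 0 to 5 in all. With the length trend removed, light damage against control had 22 members called (20 nuclear higher, 1 mt-), with medians of 0.07 and -0.01. Then Cox6a1 had -0.05 and Uqcrb -0.0038. A74 against light damage had 7 members called (6 nuclear lower, 1 higher, median -0.06), and A74 against control 1, with medians of 0.02 and -0.01. Of all genes 23%, 18.9% and 0.654% were called in these 3 comparisons with the length trend removed. The replicate block, with which the numbers are treated as pairs for light damage and control, moved nuclear calls there from 46 to 47 and changed no call but that of Sdhc among the members checked. In A74 against light damage, where samples share only a number, it gave 17 lower instead of 11, and in A74 against control 2 higher instead of 3. With Y transcripts as a term, A74 against light damage had 1 member called, with a median of -0.06, where 4.31% of all genes were called. In that fit A74 against control had a median of 0.19. Without light damage 3 and A74 1 together, A74 against light damage had 19 called (17 lower, 2 higher) and an mt- median of -0.01, and A74 against control had 10. A74 against control had 11 called without a filter (9 nuclear higher, 2 mt-) and 5 in a fit of the 2 groups alone. For that comparison 0.892% of all genes were called, 2.27% without a filter, 3.33% with the 2 groups alone and 5.32% without light damage 3 and A74 1 together. The causes were not tested.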

Other observations

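The mitochondrial ribosomal RNA rows, which are not protein coding and were read after the data were seen, were higher after light damage. Whether RNA was selected by poly(A) or depleted of rRNA is not given in the sources used here, and the counts of these rows depend on it. mt-Rnr1, the small subunit rRNA, was 361 ± 28.1 CPM in control, 531 ± 69.3 after light damage and 506 ± 34.5 with A74 (SD, n = 3), with log2 fold changes against control of 0.56 (edgeR adjusted p = 0.000457) and 0.49 (adjusted p = 0.0184). Both groups lay above all controls (332 to 388 CPM). mt-Rnr2, the large subunit rRNA, was 1560 ± 241, 1960 ± 270 and 1750 ± 71.6 CPM, and rose after light damage by 0.32 (adjusted p = 0.0459) but was not called with A74 against control (0.17, adjusted p = 0.507).

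Among the nuclear copies read that share sequence with mt- genes, Gm29216, a copy of mt-Co1 sequence, alone was called. It rose after light damage by 0.37 (edgeR adjusted p = 0.00602) and fell with A74 against light damage by 0.29 (adjusted p = 0.0307). mt-Co1 itself was not called in either. Gm29216 had 471 to 924 counts and mt-Co1 176546 to 255114, so the copy's counts may hold reads of mt-Co1 and are uncertain. Atpif1, the inhibitor of ATP hydrolysis by complex V, had 29.4 ± 0.613 CPM in control and 33.2 ± 0.771 after light damage (SD, n = 3, log2 fold change 0.18, adjusted p = 0.0767).

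The assembly factor Tmem242 stood at 24.0 ± 2.66 CPM in control, 33.1 ± 0.975 after light damage and 24.8 ± 1.13 with A74 (SD, n = 3), a rise of 0.46 (edgeR adjusted p = 0.00126) and a fall of 0.42 (adjusted p = 0.00438). Lrpprc, which stabilises mitochondrial messenger RNA, fell after light damage by 1.03 on the log2 scale (adjusted p = 0.0143) from 174 ± 48.9 to 85.2 ± 6.23 CPM, with the control libraries spread widely.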
